A study of Mus musculus with 24 samples.

Results

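10 genes of the junctions between liver cells were followed over the circadian day in mouse liver: the claudin genes Cldn1, Cldn2, Cldn3, Cldn12 and Cldn14, the tight junction genes Tjp1 and Ocln, the gap junction genes Gjb1 and Gjb2, and the adherens junction gene Cdh1. They were chosen by gene symbol, as 10 of the 19935 genes that the arrays measured, and each had 1 probe set. RNA came from livers of adult male C57BL/6 mice with no other allele or agent named. The mice had been entrained by light alternating with dim red light, and were then released into constant dim red light. Livers were taken every 3 h on the second cycle after that change, at CT00, CT03, CT06, CT09, CT12, CT15, CT18 and CT21, with 3 livers per time, each on its own Affymetrix mouse Gene ST 1.0 array (24 arrays). Circadian time (CT) is read here by the usual convention, with CT00 at subjective dawn and CT12 at subjective dusk, when mice become active.

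Tight junctions close the space between neighbouring hepatocytes and seal the bile canaliculus, the narrow channel into which hepatocytes secrete bile, off from the blood side. Claudins are membrane proteins that form the strands of the seal and set which ions and water pass, occludin lies in the same strands, and the ZO proteins, of which Tjp1 encodes ZO-1, tie the strands to actin. Gap junctions are channels of connexins through which hepatocytes share ions and small molecules, and E-cadherin, encoded by Cdh1, holds cells together at adherens junctions.

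Values below are log2 values (base 2 is assumed) from which the probe set's own median across the 24 arrays had been subtracted, so that 0 is the gene's own middle value. The level of a gene is not known from such values beyond a coarse class given below, and no expression levels are compared between genes. Cldn1 was singled out, and the other genes set beside it, with the time course of these arrays already known. The members' values and fitted waves are therefore given as a description, with no p-value. Highest and lowest times, and sets of arrays said to lie apart, were picked with the values seen. How many of all genes show such an order was counted only for the CT09 and CT12 arrays, and nothing is read from the others.

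For reference to the sequence, RefSeq promoter windows of build GRCm38.p6 were found for 9 of the 10 genes (17 windows, since some genes have several starts). The 250 bases before the start are shown for Cldn1, the gene with the widest swing, for Ocln, which had a later fitted peak, and for a start of Gjb1, in each case from 5′ to 3′ on the gene's strand. Capitals mark AGGTCA, or its reverse complement TGACCT, the core of many nuclear receptor binding sites.
Cldn1: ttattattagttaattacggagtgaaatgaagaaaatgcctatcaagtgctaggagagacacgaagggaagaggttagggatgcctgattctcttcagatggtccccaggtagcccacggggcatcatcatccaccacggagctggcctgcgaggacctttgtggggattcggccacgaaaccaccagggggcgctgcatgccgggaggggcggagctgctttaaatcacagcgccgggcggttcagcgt
Ocln: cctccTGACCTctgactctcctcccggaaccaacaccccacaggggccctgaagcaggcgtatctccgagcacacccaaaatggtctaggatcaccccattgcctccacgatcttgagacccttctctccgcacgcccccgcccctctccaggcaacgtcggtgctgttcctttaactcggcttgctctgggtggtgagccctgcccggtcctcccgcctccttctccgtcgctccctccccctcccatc
Gjb1: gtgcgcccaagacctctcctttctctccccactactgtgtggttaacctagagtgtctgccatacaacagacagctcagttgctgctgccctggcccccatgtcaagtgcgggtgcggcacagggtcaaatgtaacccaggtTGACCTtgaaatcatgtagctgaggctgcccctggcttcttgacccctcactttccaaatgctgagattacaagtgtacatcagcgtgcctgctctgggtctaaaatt
These windows lie at chr16:26371840-26372089 (minus strand), chr13:100552719-100552968 (minus strand) and chrX:101381868-101382117 (plus strand). Besides AGGTCA, 4 motifs of clock factors were searched on both strands: CACGTG and AACGTG, E-box forms bound by CLOCK and BMAL1, and TTATGTAA and TTACGTAA, D-box forms bound by the PAR bZIP factors. The letters of these 4 were found in windows of 0 of the 9 genes, and AGGTCA in 6 of the 17 windows, belonging to Cldn14, Ocln, Gjb1 and Gjb2. Of the windows of Ocln and of Gjb1, only those shown hold AGGTCA, and the other windows of these genes lack it. Among all 32851 windows of the same length CACGTG stood in 6.02%, AACGTG in 3.85%, TTATGTAA in 0.819%, TTACGTAA in 0.113% and AGGTCA in 14.02%. The 2 windows of Ocln overlap, and those of Cldn12 do too. A match of letters is a description and no evidence of binding, and a missing match says only that these letters are not in this window.

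The arrays were of one kind. Array medians ran from -0.02 to 0.01 on the log2 scale and interquartile ranges from 0.0992 to 0.1998. The 4 widest arrays were replicate 3 of CT21 and replicate 2 of CT15, CT09 and CT18. The spacing of the deposited numbers showed which probe sets had values between 8 and 16 before centring, a range of probe signal that also depends on the probes. All 7 measured hepatocyte markers (Alb, Apoa1, Apob, Cyp2e1, Fgb, Pck1 and Ttr) were in that class, as were 2 of 7 endothelial (Kdr and Stab2), 2 of 6 Kupffer cell (Clec4f and Vsig4) and 2 of 6 stellate cell markers (Dcn and Reln), and Alas2 of red blood cells. Of the 6 bile duct markers and the 4 gut epithelium markers 0 were in it. Of the 10 junction genes 7 were in it, the others being Cldn2, Cldn14 and Ocln. Of all 28815 probe sets 4012 were in it. Clock genes timed the course: the fitted peak of Nr1d1 lay at 7.29 h ± 0.29 (SE), of Dbp at 10.1 h ± 0.3, of Per2 at 15.2 h ± 0.3 and of Arntl at 22.7 h ± 0.3.

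Cldn1 encodes claudin-1, a barrier-forming claudin whose loss in people causes a disease of skin and bile ducts. Its transcript was high from late subjective night to early day and low around dusk. The 3 arrays of a time gave 0.33, 0.35 and 0.30 at CT00, 0.27, 0.35 and 0.33 at CT03, -0.11, 0.07 and 0.10 at CT06, and -1.24, -1.15 and -0.90 at CT09. They gave -1.42, -1.08 and -1.53 at CT12, -0.66, -0.42 and -0.39 at CT15, -0.18, -0.07 and 0.12 at CT18, and 0.23, 0.27 and 0.07 at CT21. All 6 arrays of CT09 and CT12 lay below the other 18, of which the lowest was a CT15 array at -0.66, and all 6 arrays of CT00 and CT03 were above 0.2. The highest mean, 0.33 ± 0.02 at CT00 (SD, n = 3), exceeded the lowest, -1.34 ± 0.24 at CT12, by 1.67 ± 0.14 (SE), or 3.18-fold.

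The decline of Cldn1 was steep. The CT09 mean was lower than the CT06 mean by 1.12 ± 0.12 (SE; -1.10 at CT09, 0.02 at CT06), the largest step between neighbouring times for this gene. The decline also held smaller steps, -0.29 ± 0.07 from CT03 to CT06 and -0.25 ± 0.17 from CT09 to CT12. On the return, the CT15 mean was above the CT12 mean by 0.85 ± 0.16. The CT18 mean lay above the CT15 mean by 0.45 ± 0.12. Further steps were 0.23 ± 0.11 from CT18 to CT21 and 0.14 ± 0.06 from CT21 to CT00. Differences between the times explained 96.5% of the variance of the 24 Cldn1 values, and a single 24 h wave 82.3%. That wave had an amplitude (the distance from the fitted middle to the peak, log2) of 0.79 ± 0.07 (SE), a peak-to-trough fold of 2.99 and a peak at 23.7 h ± 0.4. Beside it a 12 h wave had an amplitude of 0.31.

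Bile duct cells also carry claudins and E-cadherin, and their markers were set beside Cldn1. The mean of the 6 measured markers (Krt19, Krt7, Sox9, Epcam, Cftr and Muc1) was highest at CT00, 0.12 (arrays 0.09 to 0.17), and lowest at CT12, -0.10 (arrays -0.16 to -0.05). Of the 6 only Sox9 was called in the 24 h fit (amplitude 0.23, peak at 22.7 h), with 2 at an unadjusted p under 0.05. The amplitudes and fitted peaks of the others were 0.10 and 23.0 h for Krt19, 0.03 and 23.3 h for Epcam, and 0.03 and 0.73 h for Cftr. For Muc1 they were 0.05 and 0.78 h, and for Krt7 0.08 and 2.27 h. The 7 endothelial markers had time means between -0.13 and 0.11 with 0 called by limma in the 24 h fit (0 at an unadjusted p under 0.05). In the test of the 8 times 1 of them, Lyve1, was called (adjusted p = 0.0224). The 6 Kupffer cell markers had time means between -0.07 and 0.04, with 0 called in the 24 h fit (0 at an unadjusted p under 0.05). The 6 stellate cell markers ranged from -0.05 to 0.07, with Pdgfrb called. The 4 gut epithelium markers ranged from -0.09 to 0.08, with Fabp2 called, and Alas2, for red blood cells, from -0.06 to 0.13, not called. The mean of the 7 hepatocyte markers ranged from -0.23 at CT18 to 0.14 at CT12, with Fgb, Pck1 and Cyp2e1 called. Pck1 had an amplitude of 0.87 (peak at 9.87 h), while those of the other markers ran from 0.02 (Alb) to 0.10 (Cyp2e1). Sums of levels cannot be given from centred values, and the part of other cells in the Cldn1 profile was not tested. In whole liver, fewer cells of a type and less RNA per cell cannot be told apart.

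**Figure D1:**
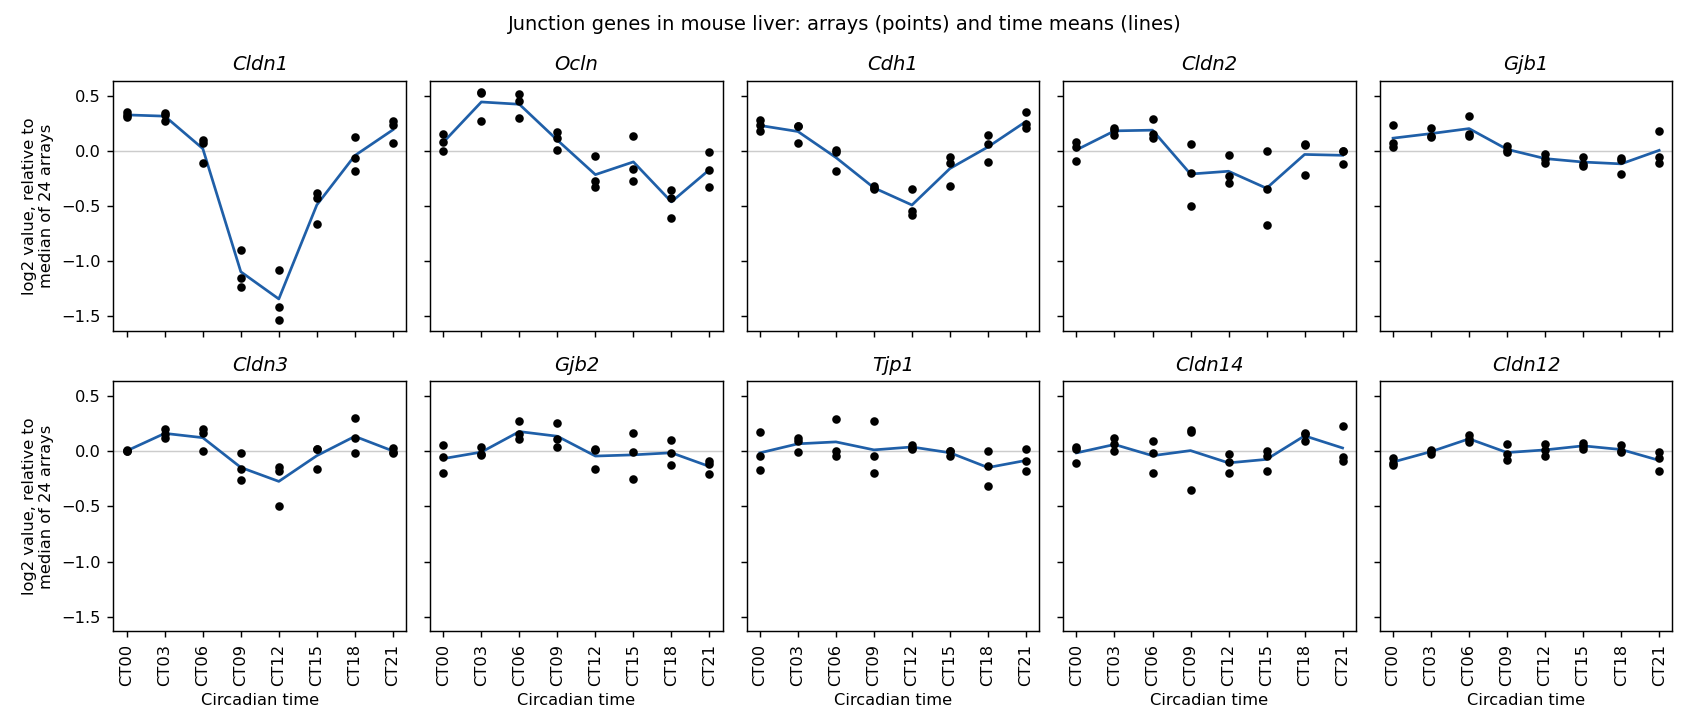
Log2 values relative to each gene's median over 24 arrays (vertical axis) at the 8 circadian times (horizontal axis) for the 10 genes, in order of 24 h amplitude; points are single arrays and lines join the means of 3. Cldn1 reaches -1.34 at CT12, while Tjp1, Cldn14 and Cldn12 stay close to 0.

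Of the other claudin members, Cldn2 and Cldn3 had intermediate swings, and the time means of Cldn12 and Cldn14 had narrower ranges. The highest mean exceeded the lowest by 0.53 ± 0.20 (SE) in Cldn2 and 0.44 ± 0.11 in Cldn3. In Cldn14 it did so by 0.25 ± 0.05 and in Cldn12 by 0.21 ± 0.03. Cldn2 encodes a pore-forming claudin that passes cations and water. Its arrays gave 0.08, -0.09 and 0.03 at CT00, 0.14, 0.19 and 0.21 at CT03, 0.12, 0.16 and 0.29 at CT06, and -0.20, -0.50 and 0.06 at CT09. Later they gave -0.29, -0.04 and -0.23 at CT12, -0.67, 0.00 and -0.35 at CT15, -0.22, 0.05 and 0.06 at CT18, and -0.00, -0.12 and -0.01 at CT21. The CT03 and CT06 arrays were all above 0.1, and the CT09 and CT15 arrays were widely scattered (SD 0.28 and 0.34). The wave of Cldn2 had an amplitude of 0.21 ± 0.05 (SE), a fold of 1.33 and a peak at 2.30 h ± 0.93.

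Cldn3, which encodes another barrier-forming claudin of hepatocytes, was lowest where Cldn1 was, at CT12, with -0.50, -0.18 and -0.14. It was highest at CT03, with 0.16, 0.12 and 0.20, and nearly as high at CT18, with 0.12, 0.30 and -0.01. Its highest mean exceeded its lowest by 0.44 ± 0.11 (SE), or 1.35-fold. The 24 h wave (amplitude 0.13 ± 0.04) explained 30.6% of its variance, against 69.7% for differences between the times, and its 12 h wave was slightly larger (0.15).

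Cldn12 had the narrowest spread within a time (SD 0.05). It was highest at CT06, with 0.11, 0.08 and 0.14, and lowest at CT00, with -0.13, -0.06 and -0.11, a difference of 0.21 ± 0.03 (SE). Its 24 h amplitude was 0.06 ± 0.02 with a peak at 10.05 h ± 1.42. Cldn14, known for its role in hearing, had a mean of 0.14 ± 0.04 at CT18 (SD, n = 3), its highest, and of -0.11 ± 0.08 at CT12, its lowest. At CT09 its arrays spanned 0.17, 0.19 and -0.35, nearly the whole range of its 24 values. Differences between the times explained 26.7% of its variance.

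Ocln encodes occludin, and its transcript followed another phase than Cldn1. Its arrays gave -0.00, 0.08 and 0.15 at CT00, 0.53, 0.53 and 0.27 at CT03, 0.45, 0.29 and 0.52 at CT06, and 0.12, 0.00 and 0.17 at CT09. The night arrays gave -0.28, -0.33 and -0.04 at CT12, -0.17, -0.27 and 0.14 at CT15, -0.42, -0.61 and -0.36 at CT18, and -0.17, -0.01 and -0.33 at CT21. The arrays of CT03 and CT06 were the 6 highest of the 24, and those of CT18 the 3 lowest. The CT03 mean (0.44 ± 0.15, SD, n = 3) exceeded the CT18 mean (-0.46 ± 0.13) by 0.91 ± 0.11 (SE), or 1.87-fold. The fitted amplitude was 0.38 ± 0.05 and the peak 4.77 h ± 0.46. At CT09, where Cldn1 had already reached -1.10, the Ocln mean was 0.10.

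Tjp1, the gene of the scaffold protein ZO-1, stayed near its median. Its time means lay between -0.15 ± 0.16 at CT18 (SD, n = 3) and 0.08 ± 0.18 at CT06, and the arrays of these times overlapped. Replicate 3 was the highest array at 6 of the 8 times, with 0.17 at CT00, 0.29 at CT06 and 0.27 at CT09 as its highest values. The labels do not say that a replicate number marks anything shared between times. Its 24 h amplitude was 0.09 ± 0.04 (SE), and differences between the times explained 28.3% of its variance.

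Of the connexin genes, Gjb1 had a shallow wave with a day peak, and Gjb2 was not called. Gjb1 encodes connexin 32, the main gap junction protein of hepatocytes. Its arrays gave 0.24, 0.07 and 0.04 at CT00, 0.13, 0.21 and 0.13 at CT03, 0.13, 0.32 and 0.15 at CT06, and 0.04, 0.01 and -0.01 at CT09. In the subjective night they gave -0.03, -0.08 and -0.11 at CT12, -0.05, -0.12 and -0.13 at CT15, -0.06, -0.21 and -0.09 at CT18, and 0.18, -0.06 and -0.11 at CT21. All 9 arrays from CT00 to CT06 were above 0, and all 9 from CT12 to CT18 were below it. The amplitude was 0.16 ± 0.02 (SE), the fold 1.24 and the peak 3.64 h ± 0.58, and the wave explained 68.8% of the variance.

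Gjb2 encodes connexin 26, the second connexin of hepatocytes. It was highest at CT06, with 0.11, 0.27 and 0.15, and next at CT09, with 0.11, 0.04 and 0.25. It was lowest at CT21, with -0.11, -0.09 and -0.21. The CT06 mean exceeded the CT21 mean by 0.32 ± 0.06 (SE), and the fitted amplitude was 0.11 ± 0.03 with a peak at 7.75 h ± 1.12.

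Cdh1, the E-cadherin gene, had the timing of Cldn1 at a smaller size. Its arrays gave 0.28, 0.23 and 0.18 at CT00, 0.23, 0.07 and 0.22 at CT03, 0.01, -0.01 and -0.18 at CT06, and -0.35, -0.34 and -0.32 at CT09. They gave -0.55, -0.35 and -0.58 at CT12, -0.11, -0.06 and -0.32 at CT15, 0.15, -0.10 and 0.06 at CT18, and 0.35, 0.20 and 0.25 at CT21. As for Cldn1, the 6 arrays of CT09 and CT12 lay below the other 18, but for Cdh1 by less than 0.01 (-0.323 for the highest of the 6, -0.319 for the lowest of the others). Over all genes 48 (0.241%) showed this order of the arrays, a window picked after the values of Cldn1 were seen. The CT21 mean of Cdh1 (0.27 ± 0.07, SD, n = 3) exceeded the CT12 mean (-0.49 ± 0.13) by 0.76 ± 0.09 (SE), or 1.69-fold. Its wave had an amplitude of 0.35 ± 0.03, a peak at 23.2 h ± 0.3 and explained 86.5% of the variance, and its 12 h wave was small (0.06).

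In the fit over all genes, limma called 2758 of 19935 (13.8%) for a 24 h wave and 5 of the 10 members: Cldn1, Cdh1, Ocln, Gjb1 and Cldn2. The test of equality of the 8 times called 2167 genes (10.9%) and 5 members, namely Cldn1, Cdh1, Ocln, Cldn3 and Gjb1. A 12 h component was called in 115 genes (0.577%) and in 2 members, Cldn1 and Cldn3. Since the genes were proposed from this time course, nothing is read from these shares. The median amplitude was 0.14 over the 10 members and 0.05 over all genes. Cldn1, Cdh1, Ocln and Gjb1 were called in the 24 h fit under all 39 alternative settings. Cldn2 was not called without CT03 (amplitude 0.19), CT06 (0.18) or CT15 (0.17). Gjb2 was called instead without replicate 3 of CT00, replicate 1 of CT12, replicate 2 of CT15 or replicate 3 of CT18, without CT12, CT15 or CT18, and with array weights, with amplitudes from 0.09 to 0.14 over all settings. Cldn3 was called without replicate 2 of CT18, CT00 or CT18, with array weights and without the 4 widest arrays, at 0.08 to 0.18 over all settings. Cldn12 was called without CT09 (0.08). In the test of the 8 times Cldn3 lost its call without CT12 and without the 4 widest arrays, which also cost Gjb1 its call. In that test Cldn2 was called without replicate 3 of CT09, replicate 2 of CT15, CT09 or the 4 widest arrays. Cldn12 was called there without replicate 1 of CT21 or CT09, and both were with quantile normalization and array weights. The 12 h call of Cldn1 held in all 39 alternatives, that of Cldn3 in 11.

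Ordered by 24 h amplitude, Cldn1 (0.79) stood above Ocln (0.38) by 0.41 ± 0.09 (SE of the difference). The errors of these amplitude differences combine the SEs of both genes as if independent, although the genes were measured on the same arrays. Ocln and Cdh1 (0.35) differed by 0.03 ± 0.06, less than the error, and Cdh1 and Cldn2 (0.21) by 0.15 ± 0.06. From Cldn2 down through Gjb1, Cldn3, Gjb2, Tjp1, Cldn14 and Cldn12, no neighbour differed from the next by more than its error. The fitted peaks of the 5 called members ran from 23.2 h for Cdh1 and 23.7 h for Cldn1 over 2.30 h for Cldn2 and 3.64 h for Gjb1 to 4.77 h for Ocln.

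Set against each other gene on the same array, Cldn1 kept its dip. Cldn1 minus Cdh1 was -0.76 ± 0.17 at CT09 and -0.85 ± 0.11 at CT12 (SD, n = 3 each), against 0.10 ± 0.04 at CT00, 0.14 ± 0.12 at CT03 and 0.08 ± 0.20 at CT06. The wave of this difference had an amplitude of 0.44 ± 0.07 (SE), the smallest of the 9 such differences. The largest was that to Gjb2, 0.85 ± 0.07. Cldn1 minus Ocln was positive at CT18 (0.42 ± 0.16), CT21 (0.36 ± 0.07) and CT00 (0.25 ± 0.09). It was negative at CT03 (-0.13 ± 0.16), CT06 (-0.40 ± 0.17), CT09 (-1.19 ± 0.15), CT12 (-1.13 ± 0.37) and CT15 (-0.39 ± 0.21). Its amplitude was 0.79 ± 0.07. Cldn1 minus Tjp1 followed Cldn1 itself, with 0.34 ± 0.19 at CT00 and -1.38 ± 0.22 at CT12. These are differences within arrays and show unequal change, not which gene changed.

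**Figure D2:**
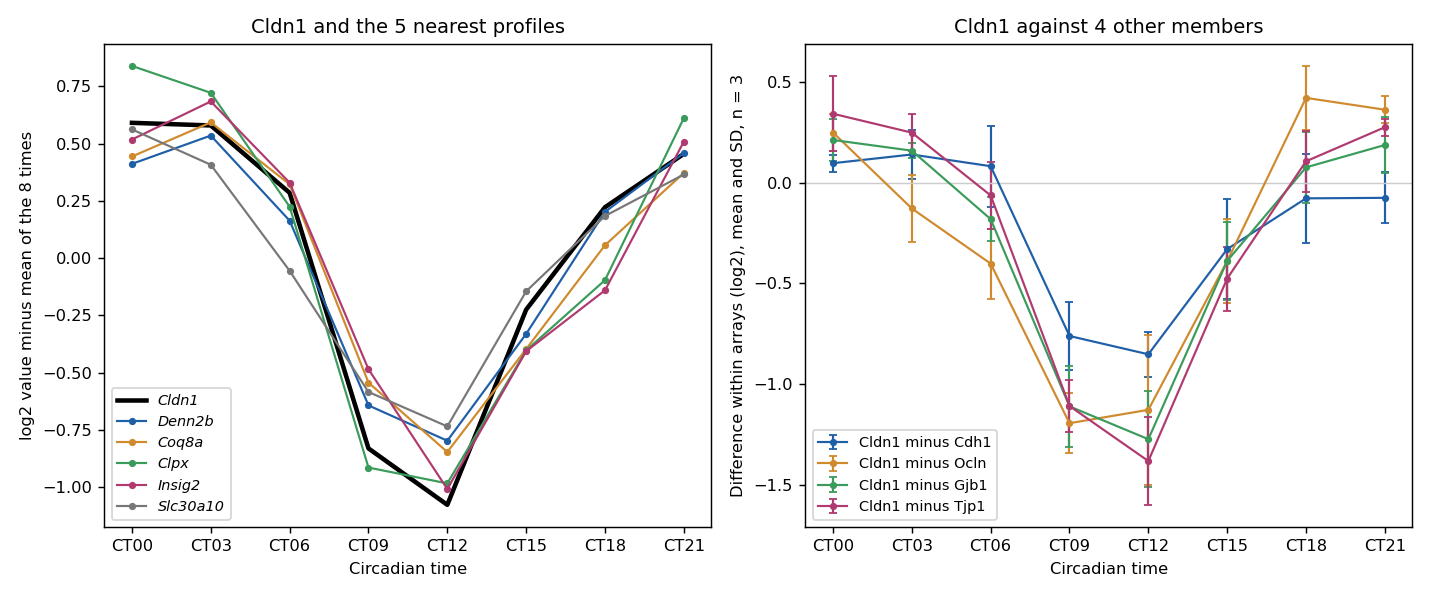
Left, time means of 3 arrays minus the gene's mean over the 8 times (log2) for Cldn1 and the 5 genes with the nearest profiles; right, Cldn1 minus another member on the same array (log2; mean and SD of 3 arrays), both against circadian time. All 6 profiles on the left have their lowest point at CT12, and on the right Cldn1 minus Cdh1 dips least (-0.85 at CT12).

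The genes whose 8 time means were most like those of Cldn1 were looked up over all genes, by the root mean square difference of the profiles, each minus its own mean. The nearest were Denn2b, a gene of the DENN domain family (0.15), Coq8a, of coenzyme Q synthesis (0.17), Clpx, a subunit of a mitochondrial protease (0.18), Insig2, whose product holds back the sterol-sensing SREBP complex (0.20), and Slc30a10, a manganese exporter (0.21). Their 24 h amplitudes were 0.65, 0.66, 0.92, 0.76 and 0.60, and their peaks lay at 23.7 h, 0.459 h, 0.0382 h, 0.678 h and 23.2 h. Each had its lowest mean at CT12, as Cldn1 had. Among the junction members Cdh1 was nearest, with a difference of 0.36 and rank 55 of 19934. Tjp3 (0.28) ranked 16, Cgn (0.31) 27 and Nectin1 (0.34) 39. The next members were Cldn3 (0.49, rank 282) and Cldn2 (0.50, rank 343).

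Genes outside the 10 were then followed in lists by role. These held other claudins, connexins and pannexins, and other tight junction, adherens junction, desmosome and keratin genes. Transcription regulators of epithelial genes were a further list, and all are counted here as other junction genes. The lists were drawn up with earlier results of these data known. Nothing is therefore read from the shares called, and the adjusted p-values of the listed genes are given as a description. Over the 89 measured genes of these lists 20 were called for a 24 h wave (22.5%, against 13.8% of all genes), 14 with a fitted peak before CT12 (day) and 6 with a later one (night). Of the 2758 genes called in all, 1598 had a day peak and 1160 a night peak. The median amplitude of the 89 genes, called or not, was 0.06, against 0.05 over all genes. Of the 89 genes 28 were called with array weights, and 16 without CT12.

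Of 23 other tight junction genes 10 were called, 5 with a day peak and 5 with a night peak. The median amplitude of the list was 0.11. Tjp3, which encodes the ZO-3 scaffold, was highest at CT00 (0.27 ± 0.12) and lowest at CT12 (-0.73 ± 0.09, SD, n = 3 each). Its amplitude was 0.44 ± 0.04 (SE) with a peak at 23.8 h (adjusted p = 1.33e-07). Cgn, the gene of cingulin, which links tight junctions to the cytoskeleton, peaked at 23.5 h with an amplitude of 0.42 ± 0.06 (adjusted p = 2.55e-05). It was lowest at CT12 (-0.53 ± 0.19) and highest at CT03 (0.42 ± 0.04). Lsr, whose protein recruits others to the corners where 3 cells meet and also takes up lipoproteins, peaked earlier, at 21.2 h (amplitude 0.28 ± 0.04, adjusted p = 0.000103). The scaffold genes Magi1 (2.78 h, amplitude 0.14, adjusted p = 0.000311) and Mpdz (6.51 h, amplitude 0.18, adjusted p = 0.000325) peaked in the subjective day.

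Of 23 other claudin genes 1 was called, Cldn5, the main claudin of endothelial cells, with an amplitude of 0.13 ± 0.03 (SE) and a peak at 22.8 h (adjusted p = 0.0313). The median amplitude of this list was 0.03. The Cldn5 call was lost in 13 of 39 alternatives, among them leaving out replicate 1 of CT00, replicate 3 of CT09, replicate 2 of CT12 or replicate 1 or 2 of CT21 (adjusted p from 0.0536 to 0.0798). It was also lost without CT03, CT06, CT09, CT12, CT15, CT18 or CT21 and with quantile normalization (0.05005 to 0.169). Of 17 other connexin and pannexin genes 0 were called by limma (1 at an unadjusted p under 0.05). The smallest p was that of Gja1, the gene of connexin 43, with an amplitude of 0.09 ± 0.03 (adjusted p = 0.2004).

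Adherens junction genes gave 5 calls among 12 at a median amplitude of 0.09. All 5 fitted peaks fell in the day, where 1598 of all 2758 called genes had theirs, but that of Nectin1 lay so close to CT00 that it moved to the end of the night under some alternatives. Nectin1, which encodes an adhesion protein of these junctions, followed the Cldn1 timing, with 0.27 ± 0.24 at CT03, its highest, and -0.57 ± 0.12 at CT12, its lowest (SD, n = 3 each). Its peak was at 0.0724 h and its amplitude 0.37 ± 0.06 (SE, adjusted p = 0.000137). Vcl, the vinculin gene, peaked at 1.33 h (0.14, adjusted p = 0.00261), Ceacam1 at 3.79 h (0.13, adjusted p = 0.0442), Afdn, whose product binds nectins to actin, at 4.03 h (0.15, adjusted p = 0.00177) and Cdh2, the N-cadherin gene, at 5.44 h (0.14, adjusted p = 0.00182). The fitted peak of Cdh1 was at 23.2 h ± 0.3 and that of Cdh2 at 5.44 h ± 0.73, a difference that was not tested. Ceacam1 lost its call in 23 of 39 alternatives. The arrays concerned were replicates 1 and 3 of CT00, 1, 2 and 3 of CT03, 1 and 3 of CT06, 1 and 2 of CT12, 3 of CT15, 1 and 2 of CT18, and 1, 2 and 3 of CT21 (adjusted p from 0.0515 to 0.113). The other settings were leaving out CT00, CT03, CT06, CT12, CT18 or CT21, subtracting array medians and probe sets taken singly (0.0546 to 0.315).

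Of 8 desmosome and keratin genes 4 were called, at a median amplitude of 0.16, all with a day peak, as had 1598 of all 2758 called genes. Dsc2, a desmosomal cadherin gene, peaked at 7.65 h (amplitude 0.29 ± 0.04, SE, adjusted p = 0.000105), and Krt18, one of the keratins of hepatocytes, at 3.37 h (0.29 ± 0.06, adjusted p = 0.00196). Dsp, the desmoplakin gene, peaked at 6.10 h (0.18, adjusted p = 0.00498) and Pkp4 at 9.51 h (0.10, adjusted p = 0.0279). The Pkp4 call was lost without replicate 3 of CT09 or replicate 2 or 3 of CT21 (adjusted p from 0.0621 to 0.0767). It was also lost without CT03, CT09, CT12, CT21 or the 4 widest arrays (0.0583 to 0.182). Of 6 transcription regulators of epithelial genes 0 were called by limma (1 at an unadjusted p under 0.05). Snai2, a repressor of Cdh1 in other settings, had the smallest p (amplitude 0.15 ± 0.05, adjusted p = 0.150), and it was called without replicate 2 of CT09 (adjusted p = 0.0161) or without CT09 (0.0377).

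**Figure D3:**
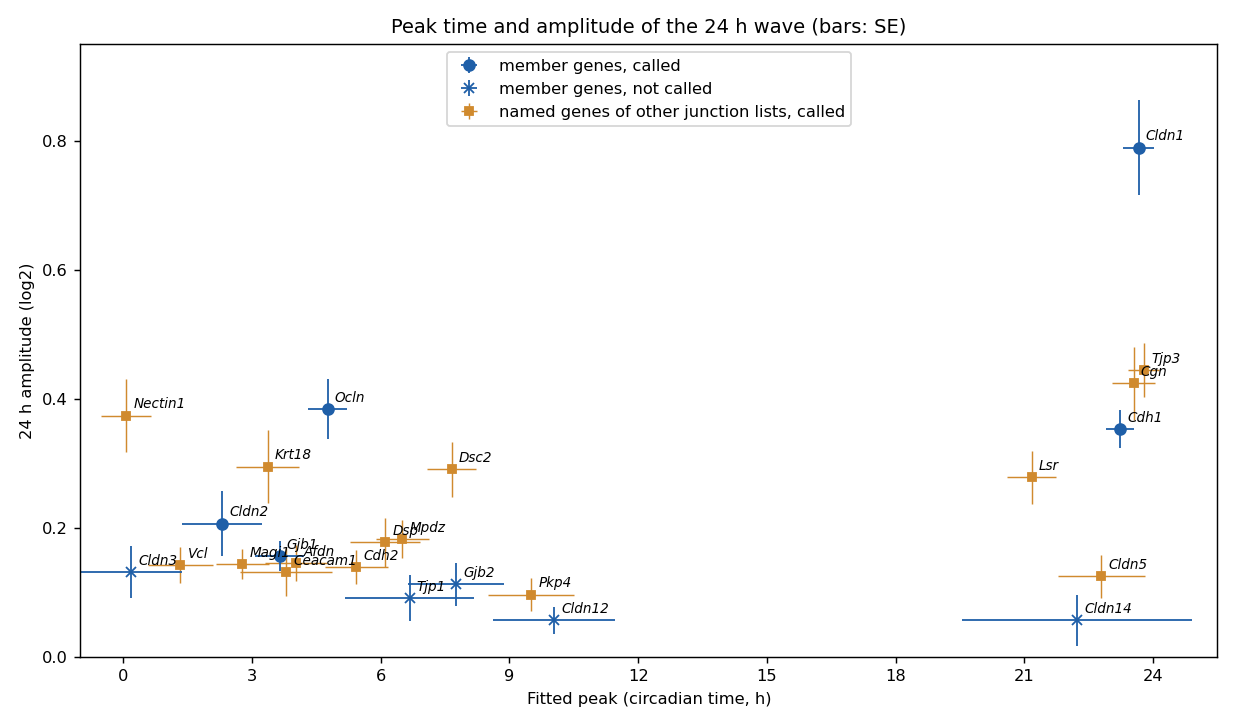
Fitted peak (circadian time, h) against 24 h amplitude (log2) with standard errors, for the 10 members (circles where called, crosses where not) and the named called genes of the other junction lists (squares). Cldn1 stands at 23.7 h and 0.79, with Tjp3, Cgn and Cdh1 at nearly the same time and between 0.35 and 0.44, while Ocln stands at 4.77 h and 0.38.

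**Figure D4:**
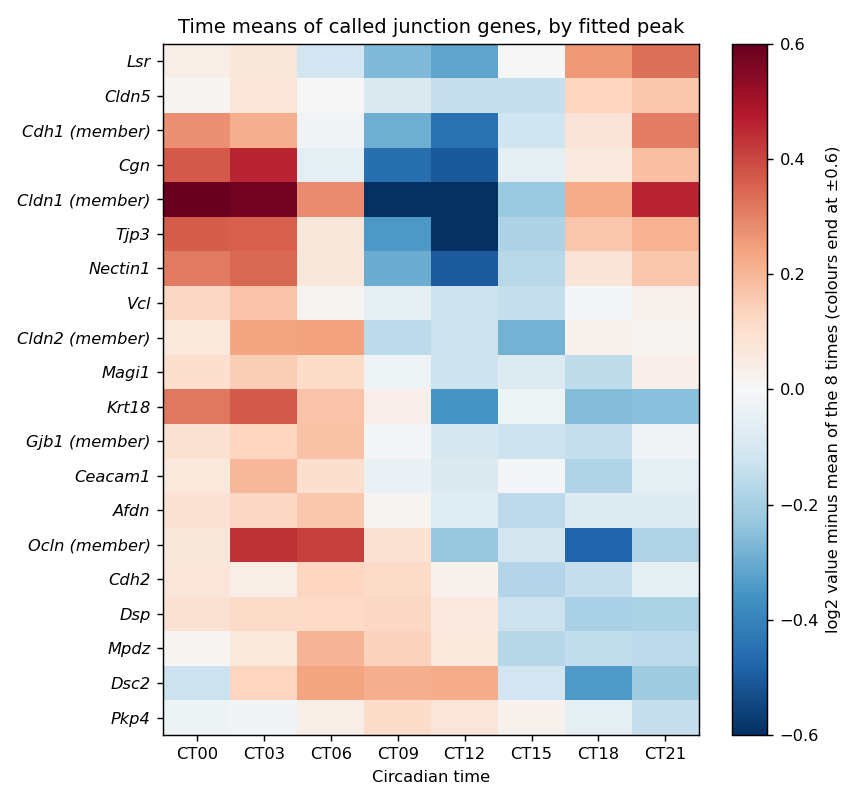
Time means of 3 arrays minus the gene's mean over the 8 times (log2, colour; colours end at ±0.6) for the called members and named called genes of the other lists, in order of fitted peak from Lsr (21.2 h) to Pkp4 (9.51 h). Genes from Cdh1 to Nectin1 have their lowest mean at CT12, and Ocln, Dsp and Dsc2 theirs at CT18.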

How the data were processed

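Per the labels' protocols, RNA of each liver was extracted singly and hybridized to an Affymetrix mouse Gene ST 1.0 array. The labels speak of more mice per time than of replicates, and grouping followed the sample titles. The deposited table holds log values, taken as log2, of 28815 probe sets, each minus its own median over the arrays (row medians within 5e-07 of 0). For background correction, normalization and log base, nothing is given in the labels. Array number sets the precision.

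Of the probe sets 21780 had 1 gene symbol in the platform annotation, 1605 had several and 5430 were not listed. Those with 1 symbol were averaged per gene (19935 genes, no symbol changed by the RefSeq table, 0 of 21780). With limma 3.58.1 in R 4.3.3, a cosine and sine of period 24 h, the means of the 8 times, and a cosine and sine of period 12 h added to the 24 h terms were tested by moderated F over all genes, with Benjamini-Hochberg adjustment at 0.05. Standard errors of peak and amplitude came from the delta method. The fit was checked on simulated data. In the test of the 8 times, p-values rest on the spread between livers within a time. In the 24 h and 12 h fits, they and the standard errors also hold any misfit of the wave to the time means.

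The members and lists were chosen with earlier results of these data known. Named besides the members were, per list, the called genes (at most 5 with the smallest p, or the 1 with the smallest p where none was called), the 5 profiles nearest to Cldn1 and 4 clock genes. Some markers had no probe set with 1 symbol and were not analysed here. Alternatives were array medians subtracted, quantile normalization, the replicate number as a block, array weights, robust moderation, probe sets taken singly, and leaving out each array or time. Leaving out the 4 widest arrays was added after seeing the data. Filters on dim probe sets and other background corrections need values not used here.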

Additional observations from a re-analysis of the deposited data

How the results depend on the processing

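The 24 h amplitudes of all 10 members and of the 9 differences between Cldn1 and another member moved by less than the spread between replicates (SD of single arrays within a time) under every alternative run (39 for the members, 36 for the differences, where subtracting array medians cancels and robust moderation and single probe sets change nothing). For Tjp1 (amplitude 0.09, SD 0.14), Cldn14 (0.06, SD 0.15) and Gjb2 (0.11, SD 0.12) even a fall to 0 would have passed, so nothing is read from it there. Of the 39, robust moderation, single probe sets and the replicate block cannot change a member's amplitude, nor can the block change a difference. The Cldn1 amplitude ranged from 0.67 without CT12 to 0.87 without CT00. The numbers of genes called for a 24 h wave (1978 to 3198) and in the test of the 8 times (1504 to 2664), of members called (4 to 7) and of other junction genes called (16 to 28) stayed within 1.5 times the reported counts. Of 26 named genes outside the members, 4 changed call under some setting (Ceacam1, Cldn5, Pkp4 and Snai2).

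The 12 h component depended most on the arrays used. Its count of 115 genes became 64 with quantile normalization, 40 without CT00, 62 without CT09, 27 without CT15, 24 without CT21 and 20 without the 4 widest arrays. It ranged from 47 (without replicate 2 of CT15) to 188 (without replicate 1 of CT15) when single arrays were left out. The members called in it, 2 in the report, were 1 or 2 without single arrays, and 1 with probe sets taken singly, without the 4 widest arrays and without each of the 8 times. The cause was not tested.

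The labels number the replicates alike at every time, without saying that a number marks a litter or day. Deviations from the time means correlated over genes with a median of 0.111 for arrays of the same number (84 pairs, from -0.399 to 0.498) and -0.0623 for other numbers, and 15 of 24 arrays were closest to their own number. With the replicate block 2984 genes, 5 members and 25 other junction genes were called for a 24 h wave, 2664 genes in the test of the 8 times and 168 for a 12 h component, and the Cldn1 amplitude was 0.79. Filters on dim probe sets and another background correction were not run, since centred values hold no level and scanner values were not used here. Changes of dim genes may be understated.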
